A study of Mus musculus with 10 samples.

Results

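The loci of 3 genes of the Notch pathway, Hes1, Jag1 and Notch2, were followed through maps of Six2 and β-catenin binding in nephron progenitors of the embryonic mouse kidney. Each locus was taken as a window of the mm9 genome: chromosome 16, 29900000 to 30200000, for Hes1, chromosome 2, 136750000 to 137100000, for Jag1, and chromosome 3, 97700000 to 98050000, for Notch2. Every peak that overlapped a window was kept, which gave 28 of the 10348 peaks deposited. The windows were chosen by their peaks, with the row numbers and overlaps of the 4 lists known, so how many peaks they hold, which lists those came from and their row numbers describe the choice as well as the loci, and none of these was tested.

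Chromatin immunoprecipitation with sequencing (ChIP-seq) was done on cells sorted by their fluorescence from E16.5 embryonic kidneys, in mice of mixed background positive for the transgene Six2GFPcre, a bacterial artificial chromosome that marks Six2-expressing cells. The cells for both antibodies shared this stage and genotype. The 2 Six2 libraries came from cells used fresh after the sort. The 2 β-catenin libraries came from cells that were pelleted and kept for 24 h in serum-containing medium with 4 µM BIO, which blocks GSK3 and so keeps β-catenin from being degraded. Since antibody and culture changed together, their effects cannot be told apart. A further 4 input DNA and 2 rabbit IgG samples of the series were not analysed here. Six2 replicate 1 held 5645 peaks, Six2 replicate 2 held 1622, β-catenin replicate 1 held 1873 and β-catenin replicate 2 held 1208. The lists give positions only, so the depth and the height behind a peak are unknown. The labels do not say whether replicates came from separate sorts or cultures, so differences between them may be technical. Distances from transcription start sites were not measured, because the gene table used here is of another assembly (GRCm38). Distances between peaks are given in their place, and no peak was assigned to a gene.

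Notch signalling passes between touching cells. A ligand such as Jag1 on the surface of a cell engages a receptor such as Notch2 on its neighbour, the receptor is cut, and its intracellular part moves to the nucleus, joins the DNA-binding protein RBPJ and switches on targets, among them the repressor gene Hes1. In the kidney the pathway is known for its part in turning progenitors into the epithelium of the nephron, and Notch2 is the receptor most needed for the proximal nephron. Six2 is the homeodomain factor that maintains the progenitors. β-catenin carries the canonical Wnt signal to DNA through TCF/LEF factors and starts the commitment of the same cells.

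The counts of peaks from each list in the 3 windows were as follows. The Hes1 window held 12 peaks, namely 6 of Six2 replicate 1 and 2 of each other library. The Notch2 window held 10, with 6 of Six2 replicate 1, 2 of Six2 replicate 2 and 1 of each β-catenin library. The Jag1 window held 6, with 2 of Six2 replicate 1, 3 of β-catenin replicate 1, 1 of β-catenin replicate 2 and 0 of Six2 replicate 2. Six2 peaks made up 8 of 12 in the Hes1 window, 8 of 10 in the Notch2 window and 2 of 6 in the Jag1 window, against 70.2% of all deposited peaks. Without Six2 replicate 1, the longest list, there were 2 Six2 and 4 β-catenin peaks at Hes1, 2 and 2 at Notch2, and 0 and 4 at Jag1. Leaving that list out also took the Six2 share of all deposited peaks to 34.5%. For scale, the genome between the outermost peaks was cut into tiles as wide as each window. This was no test, since the windows were chosen by their peaks. A site called in several lists counted once for each list. Peaks were placed in tiles by their midpoint, and in windows by any overlap. Tiles of 300 kb held a mean of 1.22 peaks over the 4 lists. Of these 8431 tiles, 0.522% held at least as many peaks as the Hes1 window. Tiles of 350 kb held a mean of 1.43 peaks. Of Six2 replicate 2 alone they held a mean of 0.224 and a median of 0, so a window without such a peak is usual. At least as many peaks over the 4 lists as in the Notch2 window were found in 1.4% of 7225 such tiles. For the Jag1 window the share was 5.3%.

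**Figure D1:**
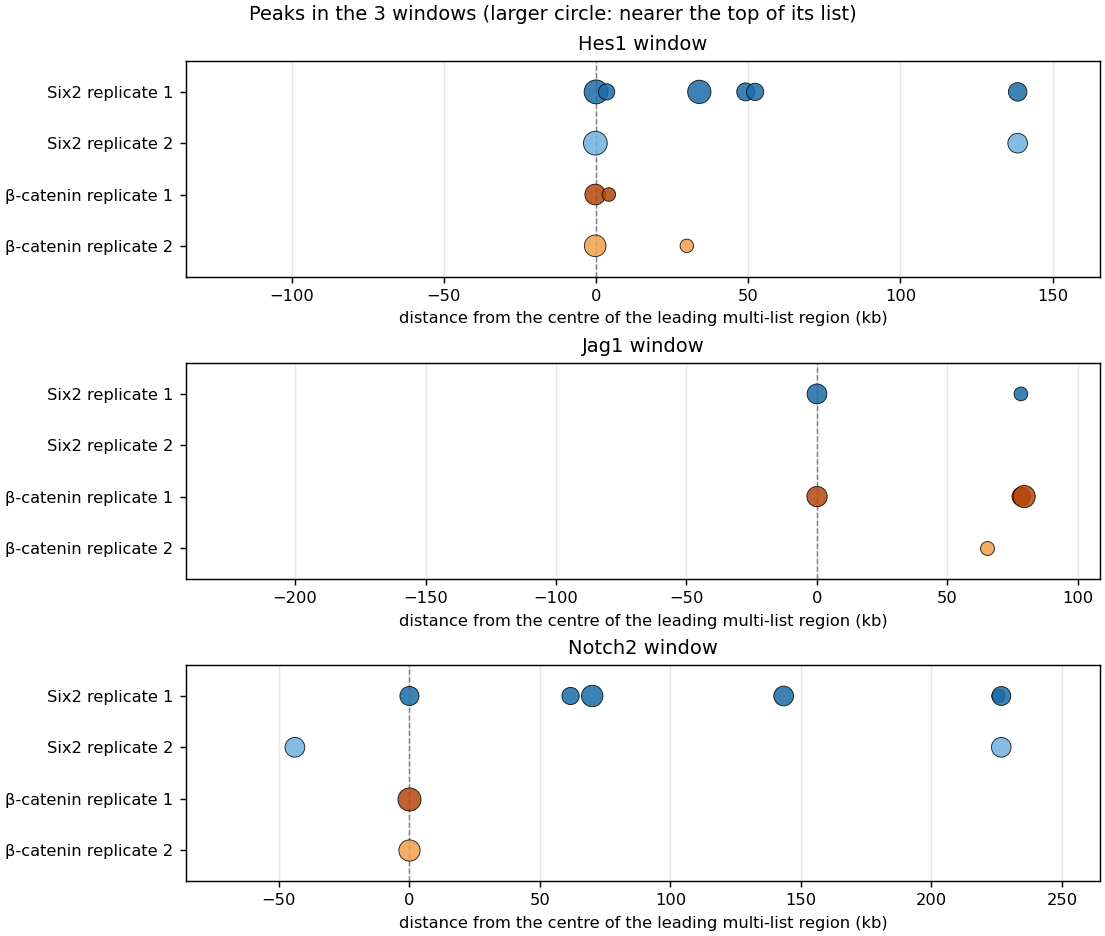
Peaks of each library (rows of circles) along the Hes1, Jag1 and Notch2 windows, by distance in kb from the centre of the region with the lowest mean relative rank among those called in 2 or more lists; larger circles lie nearer the top of their list. All 4 libraries line up at distance 0 in the Hes1 window, 3 do so in the Notch2 window, and the row of Six2 replicate 2 is empty in the Jag1 window. Circles less than about 2 kb apart cover each other in part.

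Peaks that shared at least 1 bp were merged, which turned the 28 peaks into 19 regions. Of these, 6 held peaks of 2 or more lists, 2 in each window, against 26.7% of the 7666 merged regions of the whole genome. Both Six2 libraries were present in 3 of the 19 (17.6% genome-wide), both β-catenin libraries in 2 (7.24% genome-wide), and peaks of both antibodies in 4 (9.99% genome-wide). A single region, in the Hes1 window, was called in all 4 lists (1.64% genome-wide). Six2 replicate 1 decided most of the overlap between antibodies: without it 1 region with both antibodies was left, and without β-catenin replicate 1 there were 2. A reciprocal overlap of 50% in place of 1 bp also left 1 such region.

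Row number is used as the rank of a peak, with row 1 at the head of a list, and is also given as a percentage of the list's length. That the order carries information is seen in the whole lists. From the first to the last decile of the rows, the share of peaks with a partner in the replicate list went from 76.5% to 4.79% in Six2 replicate 1 and from 85.1% to 4.81% in β-catenin replicate 1. In the shorter lists it went from 98.2% to 74.7% (Six2 replicate 2) and from 90.9% to 20.8% (β-catenin replicate 2). Each peak of the windows is set below against the share for its own decile.

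Jag1 is the ligand of the set. No region of its window was found in both libraries of either antibody. Genome-wide, 17.6% of merged regions held both Six2 libraries and 7.24% both β-catenin libraries. The window held 4 regions, so this absence does not set it apart. The 2 multi-list regions of the window each joined a peak of Six2 replicate 1 with a peak of β-catenin replicate 1. The nearest Six2 replicate 2 peak to either of those Six2 peaks lay 679612 bp away. The window's peaks sat at its high-coordinate end: the first lay 242 kb inside the lower edge.

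The first Jag1 region, at chromosome 2, 136991623 to 136991795, was row 2048 in Six2 replicate 1 (36.3% of the list) and row 606 in β-catenin replicate 1 (32.4%). The β-catenin peak was 14 bp wide and lay wholly inside the Six2 peak of 173 bp. Only 10 of the 1873 peaks of that β-catenin library were as narrow or narrower, so the overlap rests on an unusually small interval. The second region, at 137069784 to 137069950, lay 78.2 kb further along. It was row 4429 in Six2 replicate 1 (78.5% of the list) and row 915 in β-catenin replicate 1 (48.9%), and the peaks shared 13 bp at their edges. Neither overlap reached 50% of the wider peak.

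The best-ranked peak of the Jag1 window belonged to β-catenin and to a single list. It lay at 137071018 to 137071178, 1067 bp beyond the second shared region, and was row 302 of β-catenin replicate 1 (16.1% of the list). In its decile of that list 58.8% of peaks were found in replicate 2, and this peak was not. The nearest β-catenin replicate 2 peak was the other single-list peak of the window, at 137057005 to 137057089, 13928 bp away and row 932 (77.2% of its list). The β-catenin libraries thus both had a peak in this part of the window, at different places.

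Notch2 is the receptor. Its window held a region called in both β-catenin libraries and, of the Six2 libraries, in replicate 1 alone, and a region of both Six2 libraries without β-catenin, 227 kb apart. These are different places with different combinations of lists, and no region of the window had all 4.

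The β-catenin region of the Notch2 window was at chromosome 3, 97785424 to 97785681. It was row 142 in β-catenin replicate 1 (7.58% of the list), the highest relative rank of any β-catenin peak in the 3 windows, and row 294 in β-catenin replicate 2 (24.3%). The β-catenin peaks were 109 and 37 bp wide and shared 35 bp, which was 32.1% of the wider of them. Only 28 of the 1208 peaks of β-catenin replicate 2 were as narrow as its 37 bp peak or narrower. The call in both β-catenin libraries thus rests on an unusually small interval. Both β-catenin peaks lay inside a Six2 replicate 1 peak of 258 bp, a wide peak for that list (11.3% were as wide or wider). It stood at row 2388 (42.3%). Six2 replicate 2 had no peak there, and its nearest lay 43652 bp away. In the decile of Six2 replicate 1 that holds this row, 16.1% of peaks were found in replicate 2.

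The Six2 region of the Notch2 window was at 98012253 to 98012407, at row 2461 in replicate 1 (43.6% of the list) and row 614 in replicate 2 (37.9%). The replicate 1 peak of 98 bp lay wholly inside the replicate 2 peak of 155 bp. The nearest β-catenin peak was 226682 bp or more from both, which is the distance back to the region just described. A single-list Six2 replicate 1 peak of row 4634 ended 949 bp before it.

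The other Six2 peaks of the Notch2 window were each called once. Six2 replicate 1 had rows 1259, 2093 and 3128, at 61.7 to 143 kb from the β-catenin region, and the best-ranked of them lay at 97855540 to 97855643 (22.3% of the list). Six2 replicate 2 had row 609 (37.5%), at 97741529 to 97741771, which replicate 1 did not call although 88.3% of the peaks in its decile were found there. It was the only Six2 replicate 2 peak of the 3 windows that lacked a partner in replicate 1.

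Hes1 is the target gene, a basic helix-loop-helix repressor induced when Notch is activated. Its window held the best-ranked Six2 peaks of the 3 loci in both Six2 libraries, and the single region shared by all 4 lists. That region, at chromosome 16, 30034279 to 30034944, was row 10 in Six2 replicate 1 (0.177% of the list) and row 21 in Six2 replicate 2 (1.29%). It was row 543 in β-catenin replicate 1 (29.0%) and row 256 in β-catenin replicate 2 (21.2%). The site thus stood near the head of both Six2 lists and in the third decile of both β-catenin lists. Among the 1349 merged regions of both Six2 libraries it was in place 7 by mean relative rank, and among the 126 regions of all 4 lists it was in place 5 in each Six2 library, 85 in β-catenin replicate 1 and 43 in β-catenin replicate 2.

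The peaks that make up this Hes1 region differed in extent. Six2 replicate 1 called 640 bp, and only 34 of its 5645 peaks were as wide or wider. Six2 replicate 2 called 176 bp, all of it inside the replicate 1 peak and at its low-coordinate end. The β-catenin peaks of 163 and 79 bp lay at the same end, with midpoints 39.5 and 54.5 bp from the midpoint of the Six2 replicate 2 peak and 15 bp from each other. Their midpoints were 264.5 and 279.5 bp from that of the wide Six2 replicate 1 peak. The 3 narrower peaks therefore marked a common stretch, and the high-coordinate part of the wide peak was called by Six2 replicate 1 alone. With a reciprocal overlap of 50%, Six2 replicate 2 and β-catenin replicate 1 still matched here (73.9% and 79.8% of their peaks shared), whereas the Six2 libraries no longer matched each other, since 27.5% of the wide peak was shared.

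**Figure D2:**
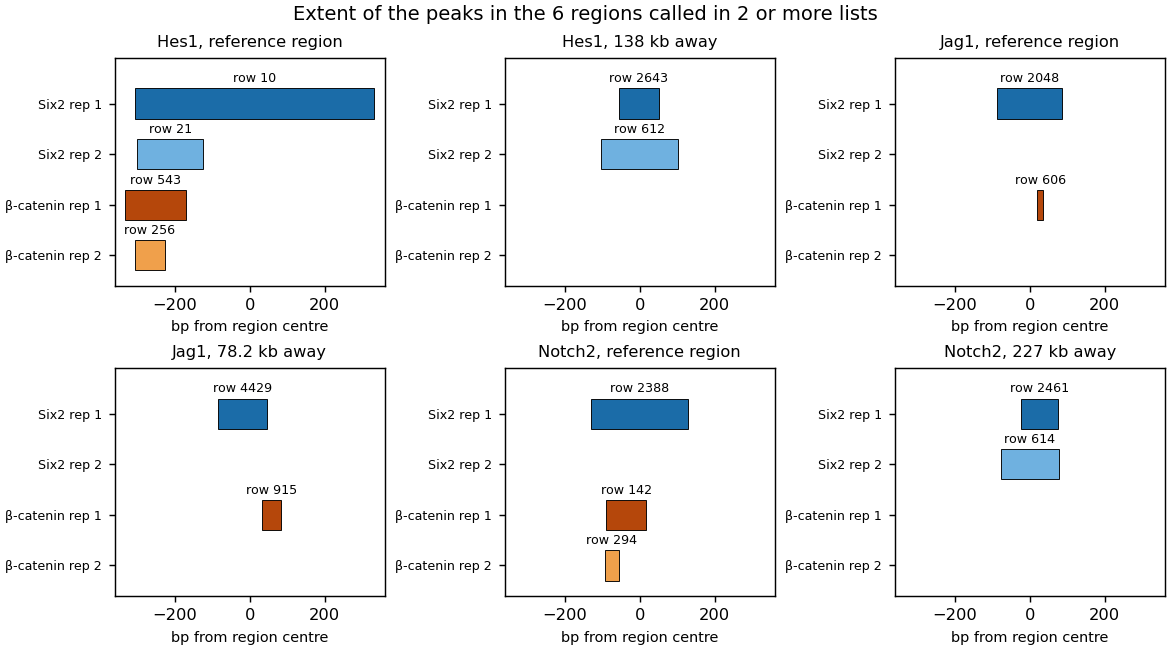
Extent in bp of each peak, from the centre of its region, for the 6 regions called in 2 or more lists (bars, 1 row per library, labelled with the row number in the list). The wide Six2 replicate 1 peak of the Hes1 region (640 bp) reaches well beyond the other 3 libraries, while in the Notch2 region of 258 bp both β-catenin peaks lie inside the Six2 peak.

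The other Hes1 region of both Six2 libraries lay 138 kb further along, at 30172993 to 30173199, and had no β-catenin peak. It was row 2643 in Six2 replicate 1 (46.8% of the list) and row 612 in Six2 replicate 2 (37.7%), and the replicate midpoints were 2.5 bp apart. In relative rank it was close to the Six2 region of the Notch2 window: these were places 802 and 767 of the 1349 merged regions of both Six2 libraries.

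Between these Hes1 regions lay 6 regions of a single list each. The Six2 replicate 1 peak at 30068510 to 30068560 ranked well, at row 326 (5.78% of the list), but was 51 bp wide and was not found in replicate 2, where 76.5% of the peaks in its decile were found. It lay 33.9 kb from the shared Hes1 region. A β-catenin replicate 2 peak at 30064343 to 30064508, row 963 (79.7%), ended 4001 bp before it. The remaining Six2 replicate 1 peaks were rows 2906, 3137 and 3545. The last of these, at 30037983 to 30038182, and a β-catenin replicate 1 peak of row 1480 (79.0% of its list), at 30038734 to 30038886, lay within 4.2 kb of the shared region. They came within 551 bp of each other without overlapping.

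**Figure D3:**
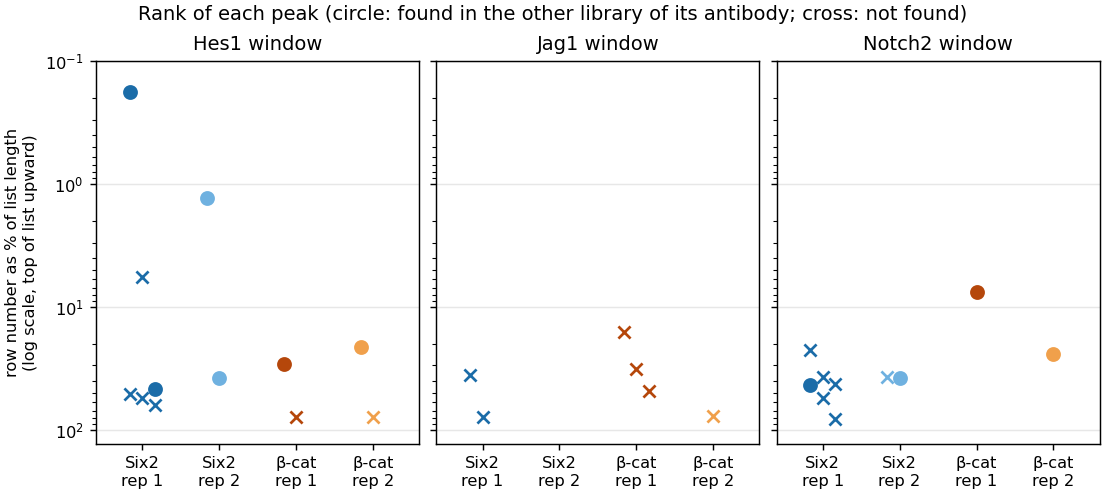
Row number as a percentage of list length (log axis, head of the list upward) for each peak in the 3 windows, by library; circles have a partner in the replicate list of the antibody and crosses have none, with small sideways shifts to part the points. The Hes1 circles of Six2 at 0.177% and 1.29% stand above all others, the Jag1 panel holds only crosses, and the highest β-catenin circle is that of Notch2 at 7.58%.

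Over the 3 windows together, recovery between replicates was close to that of the whole lists. Of the 14 peaks of Six2 replicate 1, 3 were found in replicate 2, against 24.0% of the whole list, and of the 4 peaks of Six2 replicate 2, 3 were found in replicate 1, against 83.1%. For β-catenin, 2 of 6 replicate 1 peaks were found in replicate 2 (29.5% of the whole list), and 2 of 4 replicate 2 peaks in replicate 1 (45.6%). With so few peaks these counts do not set the loci apart from the lists they come from. The peaks found again were not all the best ranked: the found Six2 replicate 1 peaks were rows 10, 2461 and 2643, and rows 326 and 1259 were not found. Rows 2461 and 2643 lay in a decile where 16.1% of peaks were found. The share was 35.9% in the decile of row 1259 and 76.5% in that of rows 10 and 326.

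**Figure D4:**
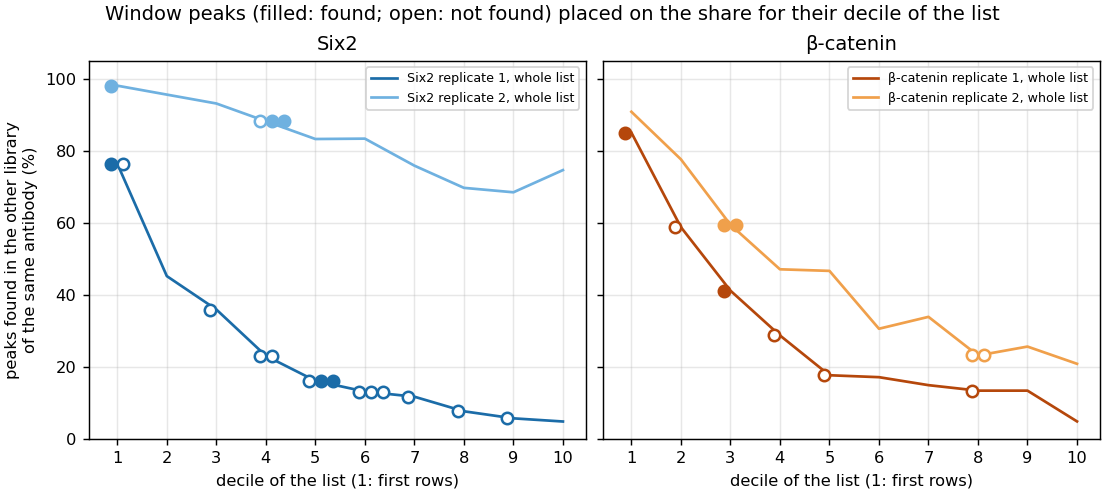
Share of peaks with a partner in the replicate list (y axis, %) by decile of the list (x axis) for each whole list (lines), with the peaks of the 3 windows placed on the line of their library (filled circles were found, open circles were not; circles of the same decile are shifted sideways). In the first decile of Six2 replicate 1, where 76.5% were found, the window peaks comprise 1 found (Hes1, row 10) and 1 not found (Hes1, row 326).

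Overlap between antibodies was counted from each list. Of the 6 β-catenin replicate 1 peaks, 4 lay on a Six2 peak (36.6% of the whole list), and of the 4 of β-catenin replicate 2, 2 did (27.9%). Of the 14 Six2 replicate 1 peaks, 4 lay on a β-catenin peak (12.9%), and of the 4 Six2 replicate 2 peaks, 1 did (23.6%). Taking gaps rather than overlaps, all 6 β-catenin replicate 1 peaks of the windows were within 5000 bp of a Six2 peak, against 43.5% of that list. The same was true of 3 of the 4 β-catenin replicate 2 peaks (35.3% of the list). Peaks of either Six2 library counted. For each of these β-catenin peaks a peak of Six2 replicate 1, the longest list, was the nearest or equally near. Within 5000 bp of a β-catenin peak were 6 of 14 Six2 replicate 1 peaks (16.3%) and 1 of 4 Six2 replicate 2 peaks (26.4%). The windows were chosen with these overlaps known, so the counts are a description of the loci.

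The window edges mattered at Hes1. A region at chromosome 16, 30215874 to 30216089, lay 15.9 kb beyond the upper edge and was row 1221 in Six2 replicate 1, row 266 in Six2 replicate 2 and row 325 in β-catenin replicate 2. A second, at 30244238 to 30244390, lay 44.2 kb beyond and was row 5317 in Six2 replicate 1 and row 850 in β-catenin replicate 1. The nearest peak inside that edge was 26.9 kb from it. Outside the other edges the nearest peak was 321 kb below the Hes1 window, 32.1 and 290 kb from the Jag1 window and 128 and 730 kb from the Notch2 window. Just inside, the nearest peaks lay 134 kb from the lower Hes1 edge, 28.8 kb from the upper Jag1 edge, and 41.5 and 37.6 kb from the Notch2 edges.

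Sites with a pattern of ranks like that of the shared Hes1 region were sought among the other 125 regions of all 4 lists, by the Euclidean distance of log10 relative ranks over the 4 libraries. The nearest was at chromosome 1, 16283978 to 16284246, with rows 14 and 20 for Six2 and 452 and 188 for β-catenin, at a distance of 0.21. The next were at chromosome 6, 99863064 to 99863359 (rows 6, 69, 357 and 559, distance 0.68), and chromosome 1, 129297353 to 129297609 (rows 8, 33, 320 and 1067, distance 0.70). For the Six2 region of the Notch2 window, compared over the 2 Six2 libraries with 988 regions called in those alone, the nearest was at chromosome 4, 31754407 to 31754684, with rows 2605 and 595 and a distance of 0.03. The Jag1 window had no region of both Six2 libraries to compare.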

How the data were processed

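ChIP-seq peak lists of 4 libraries were used. Each deposited file gives chromosome, start and end in 3 columns, with neither header nor values per peak. The submitters' processing notes name the mm9 build and CASAVA 1.6. The sample titles name an input DNA control for each library. The sources used here do not give the peak caller, its threshold or whether those controls were used in calling. Lists are per library, not pooled, and depth is unknown.

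BED intervals were converted to 1-based positions. Peaks were merged where they shared at least 1 bp (Python 3.11.15, pandas 2.3.3). Midpoint distances, gaps and relative ranks (row number divided by list length) were computed from the intervals. The overlap code was tested on simulated lists. Gene loci, lists and the naming rule (every region of 2 or more lists, and the best-ranked single-list peaks) were chosen with earlier results of these data known, so no test was made. Replicates are numbered in accession order. Alternatives were midpoints within 500 bp, reciprocal overlap of 50%, windows wider by 50 kb, the first 50% of each list, relative rank and leaving out each library. Peak sequences, motifs, start-site distances and other Notch pathway genes were not analysed, because no mm9 genome or annotation was used here.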

Additional observations from a re-analysis of the deposited data

How the results depend on the processing

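The windows held 28 peaks, and 14 to 24 when a single library was left out, the lowest being without Six2 replicate 1. Regions with both antibodies numbered 4, and 1 to 4 with a library left out. They numbered 1 with a reciprocal overlap of 50%, which also took the regions of both β-catenin libraries from 2 to 0, because the narrower peaks cover less than 50% of the wider ones. The 3 regions of both Six2 libraries became 2 under that rule. With midpoints within 500 bp all 3 counts were as reported. The first 50% of each list gave 19 peaks, 3 and 2 regions of both libraries for Six2 and β-catenin, and 3 regions with both antibodies. Windows wider by 50 kb gave 34 peaks and 4, 2 and 6 such regions. The leading Six2 region of the Hes1 window (mean row 15.5) was the same by relative rank. This could not have differed, because that region stood above the other Hes1 region of both Six2 libraries in each list. The counts within an antibody need both libraries and have no value with a library left out. No paired analysis was possible because the replicate numbers follow accession order and the results come from no test. Depth, which the lists do not give, limits what a missing peak means: an interval absent from a list may have fallen short of the unknown threshold.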

Other observations

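Of the 4 Six2 replicate 2 peaks in the windows, 3 stood close together in that list, at rows 609 (Notch2), 612 (Hes1) and 614 (Notch2), which was seen only after the rows were listed. In the Notch2 and Jag1 windows a single-list peak lay close to a region of more lists without touching it. How often this occurs in the whole lists was not counted. In the Notch2 window the gap was 949 bp, between peaks of Six2 alone, and in the Jag1 window it was 1067 bp, between a β-catenin peak and a region of both antibodies.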
